A study of Mus musculus with 2 samples.

Results

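The 8 genes described here, Mmp8, Mmp9, Mmp12, Mmp13, Mmp14, Mmp19, Timp1 and Timp2, encode 6 matrix metalloproteinases and 2 of their tissue inhibitors, and they were chosen by name from the 32285 mouse genes in the count tables. The tumors had grown from 143B cells, an established human osteosarcoma line, in nude mice, a strain without a working thymus and therefore with few mature T cells. The mice were given control IgG, also labelled IgG1, or an antibody to CD3L1 (CD3 ligand 1, ITPRIPL1). For each treatment 3 tumors were pooled, cells were taken with CD45 magnetic beads, and 1 single-cell library was made, so a group is 1 sample and no test across samples could be run. The intervals below are exact 95% intervals that cover counting error only, not the spread between mice.

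Matrix metalloproteinases are zinc-dependent endopeptidases that cut collagens, elastin, other matrix proteins, cytokines and receptors, and most are secreted as inactive proenzymes. The tissue inhibitors of metalloproteinases bind the active site in a stoichiometric complex, and TIMP-2 also forms a bridge between MMP-14 and the MMP-2 proenzyme on the cell surface. Neutrophils store MMP-8 and MMP-9 protein in their granules and make much of it during maturation in the marrow, while osteoclasts and tissue macrophages make their own sets of the enzymes.

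A barcode was kept as a cell where it had at least 500 unique molecular identifiers (UMIs, each tagging 1 captured RNA molecule), over 200 and under 6000 detected genes and under 5% mitochondrial UMIs. This left 8557 cells with a median of 5526 UMIs in the control IgG library and 11269 cells with a median of 8267 UMIs in the anti-CD3L1 library, and 26 kept barcodes occurred in both. Cells were put into classes by marker genes: a cell joined the class whose markers scored highest if the score was at least 0.25 and led the next class by at least 0.10. The neutrophil-like class held 5850 control and 595 anti-CD3L1 cells, the monocyte-like class 1081 and 2355, the macrophage-like class 442 and 3370, and the natural killer-like class 136 and 744. Of these, 97 and 31 neutrophil-like cells, 184 and 515 monocyte-like cells and 54 and 359 macrophage-like cells lay within 0.05 of the cut. The gate left 10.9% of control and 30.03% of anti-CD3L1 cells without a class. In each of the 10 classes described, more of the top 10 genes by fold were its own markers than were markers of any other class. The cells had been gated on these same markers, so this is no test of the class names. The sort was for CD45, yet 3 control and 37 anti-CD3L1 cells had a fibroblast profile, led by Col3a1, Col1a2 and Col1a1.

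The level of a gene in a class is given in CPM, its UMIs per 1000000 UMIs of all genes in the same cells. Each member was compared between classes within a library and between the 2 libraries within a class, which asks whether a difference seen over all cells is also seen among cells of one kind. All 8 members were detected in both libraries, with 1287 to 14872 UMIs in the control cells and 1106 to 20745 in the anti-CD3L1 cells.

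Over all kept cells, Mmp8 and Mmp9 were lower and Mmp12 and Mmp19 higher in the anti-CD3L1 library by at least 2-fold. Mmp8 was at 131 CPM in control and 11.3 CPM in anti-CD3L1 cells, Mmp9 at 221 and 21.7 CPM. Mmp12 stood at 32.6 and 136 CPM and Mmp19 at 35.8 and 94.98 CPM. Thus 2 of 8 members were at least 2-fold higher and 2 of 8 at least 2-fold lower, where 33.6% of 17781 genes with at least 20 UMIs were that much higher and 6.65% that much lower. These sums follow the makeup of the libraries as well as the cells: 68.4% of control but 5.28% of anti-CD3L1 cells were neutrophil-like. The within-class values below differ from them in size and, for Mmp9, Mmp12, Mmp13, Mmp14 and Timp2, in direction in at least 1 class whose interval lay on the other side of no change. For Mmp12 this was the plasmacytoid dendritic-like class, where all control UMIs were in 2 of 18 cells.

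**Figure D1:**
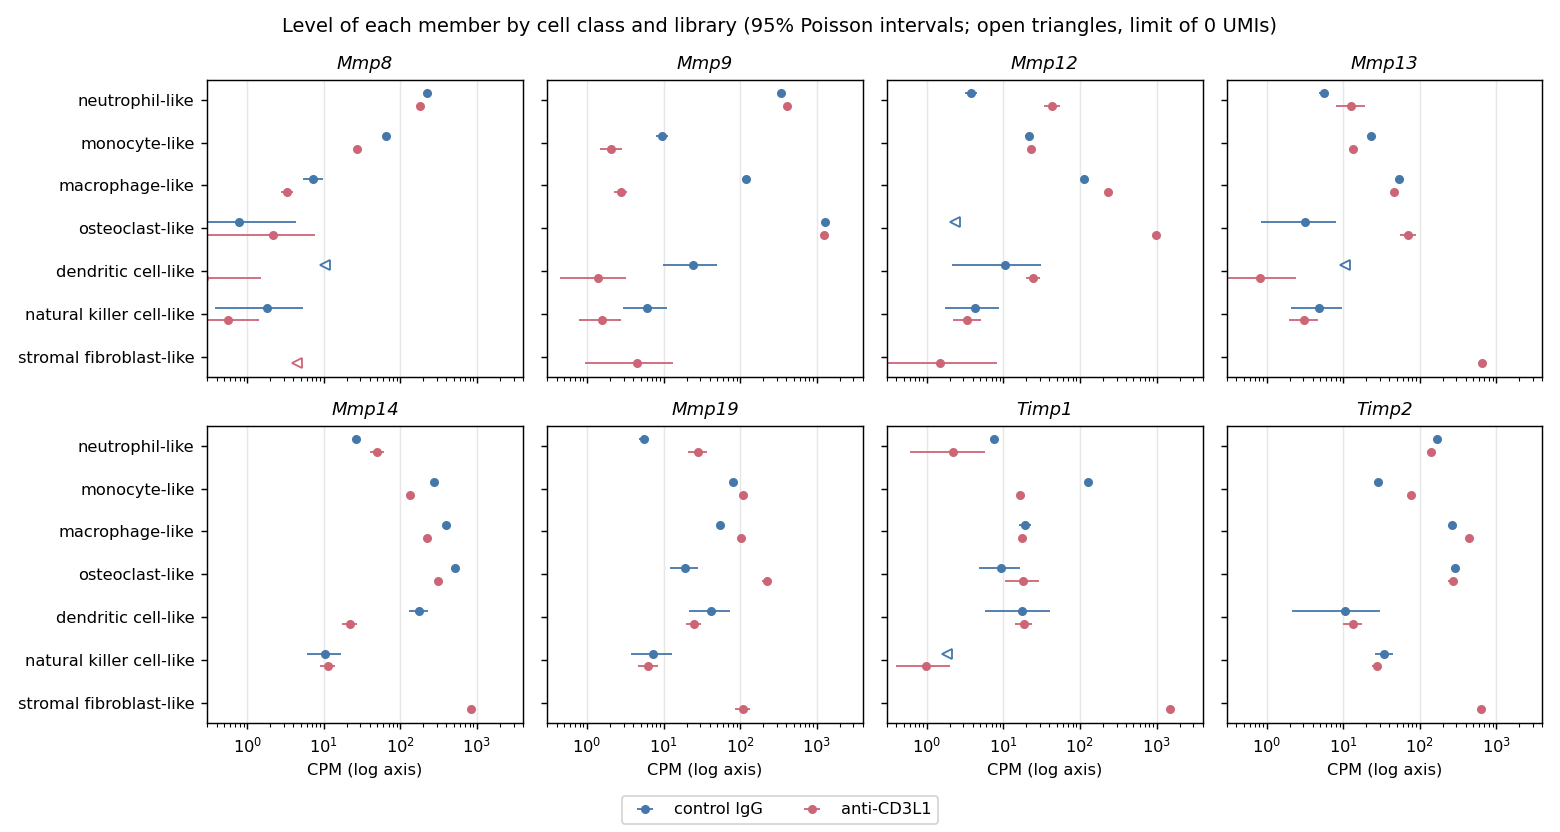
Level of each of the 8 genes by cell class (rows) in the control IgG (blue) and anti-CD3L1 (red) libraries, in CPM on a log axis; bars are 95% Poisson intervals and open triangles mark the limit that 3 UMIs set where none was counted. Mmp8 was highest in neutrophil-like cells of both libraries, Mmp9 in osteoclast-like cells, and the stromal fibroblast-like cells of the anti-CD3L1 library had 1521 CPM of Timp1.

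Mmp8, neutrophil collagenase, had its highest level in neutrophil-like cells, at 224 CPM (219 to 229) in the control and 179 CPM (160 to 200) in the anti-CD3L1 library. The anti-CD3L1 level was the lower of these and the intervals did not overlap, with a log2 ratio of -0.33. Monocyte-like cells followed with 64.4 CPM in control and 27.3 CPM in anti-CD3L1 cells, a log2 ratio of -1.24 (-1.40 to -1.08). Natural killer-like cells, which should lack the gene, had 1.83 and 0.564 CPM. The neutrophil-like cells held 85.3% of the Mmp8 UMIs of the control library and 29.0% of those of the anti-CD3L1 library, in which monocyte-like cells held 47.5%.

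Within the neutrophil-like class, Mmp8 was held by a smaller share of the cells in the anti-CD3L1 library. The 10% of cells with the most Mmp8 held 63.5% of the class's Mmp8 UMIs in the control and 88.2% in the anti-CD3L1 library, and after thinning each cell to 1000 UMIs 13.6% and 8.66% of cells had the gene. The shares held by the highest cells were not thinned, and median depth in the class was 4513.5 and 2182 UMIs. Without thinning, 2140 of 5850 control and 98 of 595 anti-CD3L1 cells had any Mmp8. In the anti-CD3L1 library the 10 highest cells, 1.68% of the class, held 53.9% of its UMIs. The 10 highest control cells are 0.171% of the larger class and held 3.83%. In the anti-CD3L1 library the same 10 cells also held 84.1% of the UMIs of Ltf (lactoferrin), 84.4% of those of Camp (cathelicidin) and 90.8% of those of Ngp (neutrophilic granule protein), 3 genes transcribed by maturing neutrophils as they fill their secondary granules. The matching shares in the 10 control cells were 2.47%, 2.24% and 3.78%. Outside the 10 cells, Mmp8 was at 218 CPM in control and 87.6 CPM in anti-CD3L1 cells. Leaving those cells out of both libraries gave a log2 ratio of -1.31 in place of -0.33, and leaving out an equal share, the 2% of cells with the most Mmp8 (117 and 12 cells), gave -1.10. Both choices were made after seeing the data. Classes drawn by clustering turned it to 1.40, over 3889 control but 73 anti-CD3L1 cells, 36 of them in a cluster led by Ngp. That cluster (1732 and 36 cells) had 407 CPM of Mmp8 in control and 1104 CPM in anti-CD3L1 cells. A neutrophil cluster led by F630028O10Rik (2157 and 37 cells) had 150 and 79.0 CPM. An unnamed cluster led by BC018473 (439 and 611 cells) had 56.6 and 67.8 CPM. The part of cluster makeup in the neutrophil-like ratios was not tested.

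**Figure D2:**
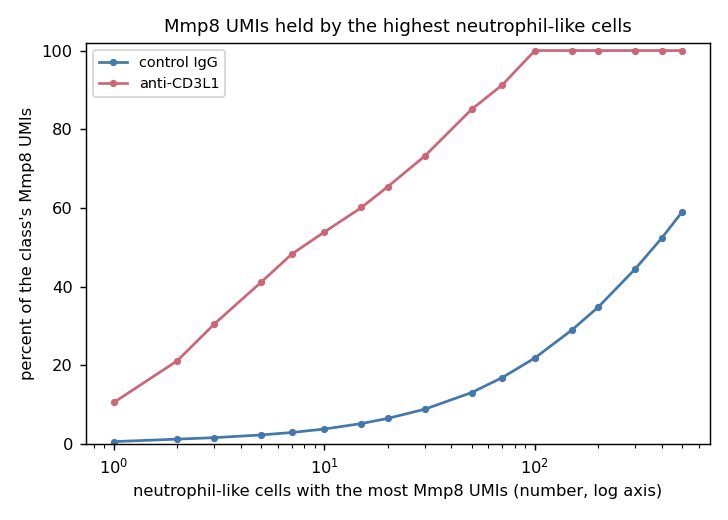
Cumulative percent of the Mmp8 UMIs of neutrophil-like cells (y axis) held by the cells with the most Mmp8 (x axis, number of cells, log axis), control IgG in blue and anti-CD3L1 in red. The 10 highest cells held 3.83% in the control and 53.9% in the anti-CD3L1 library.

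Retnlg, a neutrophil marker known to be high in younger neutrophils, was used to divide the class after each cell had been thinned to 1000 UMIs. Mmp8 was at 269 CPM in control cells with Retnlg and 89.6 CPM in those without, and at 293 and 37.6 CPM in the anti-CD3L1 library. Retnlg-positive cells thus had more Mmp8 in both libraries, by a log2 ratio of 1.59 (1.48 to 1.70) and 2.96 (2.41 to 3.57). Between the libraries, the level in cells with Retnlg differed by a log2 ratio of 0.13, with an interval from -0.05 to 0.29. In cells without Retnlg it was lower in the anti-CD3L1 library by a log2 ratio of -1.25 (-1.84 to -0.72). The 10 anti-CD3L1 cells with the most Mmp8 held 173 of the class's 321 Mmp8 UMIs, and each had at least 15 Retnlg UMIs before thinning. The contrasts by Retnlg were not computed without these 10 cells, so the level in anti-CD3L1 cells with Retnlg may rest in large part on them. Cells with Retnlg were 3980 of 5711 thinned control cells and 306 of 554 thinned anti-CD3L1 cells. The deeper cells were those with Retnlg, with medians of 4918.5 against 3874 UMIs and 2367.5 against 2157.5 UMIs.

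The Mmp8 UMIs of monocyte-like cells were set beside those of S100a9, a very abundant neutrophil RNA that marks free RNA and doublets with neutrophils. S100a9 was also a neutrophil marker of the gate, so cells of the other classes were chosen in part for low S100a9. High counts per S100a9 UMI there are partly set by that choice, and the part of free RNA was not tested. In the control library there were 2.32 Mmp8 UMIs per 1000 S100a9 UMIs in neutrophil-like cells, 1.24 in barcodes of 20 to 100 UMIs, taken as empty droplets, and 51.5 in monocyte-like cells. Monocyte-like cells with at most 2 S100a9 UMIs had 36.6 CPM of Mmp8 (59 UMIs in 158 cells). The anti-CD3L1 monocyte-like cells had 173 Mmp8 UMIs per 1000 S100a9 UMIs, against 3.89 in the neutrophil-like cells of that library. In macrophage-like cells Mmp8 was low, at 7.34 and 3.32 CPM, and 38 of 47 control UMIs were in 10 cells. The log2 ratio there, -1.14, became 0.51 without the 10 highest cells of each library, which are 2.26% of the control and 0.297% of the anti-CD3L1 class, and -2.44 without the highest 2% of each. Under a stricter gate it was 0.19.

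Mmp9, gelatinase B, had levels in 3 classes that stood apart from each other in the control library. Osteoclast-like cells had 1281 CPM in control and 1226 CPM in anti-CD3L1 cells, neutrophil-like cells 343 and 404 CPM, and macrophage-like cells 117 and 2.74 CPM. The osteoclast-like levels, over the whole class, differed by less than the counting error (log2 ratio -0.06, -0.17 to 0.05), but the class held unlike cells in the libraries. The 10 highest cells held 1257 of 1631 control and 903 of 1143 anti-CD3L1 Mmp9 UMIs of the class, which the interval does not cover. At least 5 Mmp9 UMIs were in 26 of 40 control and 19 of 63 anti-CD3L1 cells, which had 1908 and 2741 CPM. These cells were picked by Mmp9 itself and at unequal depth (medians of 32593 and 22125 UMIs), so their levels follow in part from the choice. Median depth in the class was 32694.5 and 14416 UMIs. The neutrophil-like level of Mmp9 was slightly the higher in the anti-CD3L1 library (0.23, 0.12 to 0.34). In macrophage-like cells it was 42.8-fold higher in control cells (34.5 to 53.6), the widest gap of any member in the neutrophil-like, monocyte-like or macrophage-like class. The 10 processing alternatives that gave a value left this ratio between -4.11 and -6.43 on the log2 scale, and without the highest 2% of cells no anti-CD3L1 UMI remained. Monocyte-like cells had 9.49 and 2.08 CPM, near the 6.11 and 1.55 CPM of natural killer-like cells.

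The Mmp9 of control macrophage-like cells was found in 109 cells, with a ratio to S100a9 above that of neutrophil-like cells. The 10 highest cells held 241 of 752 UMIs, and 24.7% of the 442 cells had at least 1 UMI, as did 1.39% of the 3370 anti-CD3L1 cells. After thinning to 1000 UMIs, 8.20% of 439 control macrophage-like cells had Mmp9 (5.81 to 11.2%), against 0.239% of 3344 anti-CD3L1 cells. None of 136 thinned natural killer-like control cells did. At that depth 3 cells set a limit of 2.21% and the exact upper bound was 2.68%, and at full depth 4.41% of them had 1 or more. Thinning left out 3 control and 26 anti-CD3L1 macrophage-like cells, 1 and 7 monocyte-like cells and 139 and 41 neutrophil-like cells with fewer UMIs. The median depth before thinning was 14220 UMIs in control macrophage-like cells and 10922.5 UMIs in control natural killer-like cells. Per 1000 S100a9 UMIs there were 83.4 Mmp9 UMIs in control macrophage-like cells, 3.55 in neutrophil-like cells, 4.35 in empty droplets and 9.11 in natural killer-like cells. Osteoclast-like control cells had 4556, and the part of osteoclast RNA in the macrophage-like level was not tested. Outside the neutrophil-like class these counts per S100a9 UMI are partly set by the gate, which used S100a9 as a neutrophil marker. The 86 control macrophage-like cells with at most 2 S100a9 UMIs had 144 CPM of Mmp9, and the 410 without a UMI of the osteoclast protease Ctsk had 113 CPM. Empty droplets held 170 CPM of Mmp9 in the control and 71.0 CPM in the other library.

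Mmp9 was found more often in neutrophil-like cells with Mmp8 than in those without it. In the thinned control library, 36.3% of 777 cells with Mmp8 also had Mmp9 (32.9 to 39.8%), against 25.3% of 4934 cells without Mmp8. In the anti-CD3L1 library the shares were 56.3% of 48 cells and 25.1% of 506 cells. The ratio of Mmp8 to Mmp9 UMIs was 0.653 in control neutrophil-like cells (0.634 to 0.673) and 0.443 in anti-CD3L1 ones (0.387 to 0.506). Of all Mmp9 UMIs, neutrophil-like cells held 77.4% in the control library and 34.1% in the anti-CD3L1 library, where 63 osteoclast-like cells held 53.8%.

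**Figure D3:**
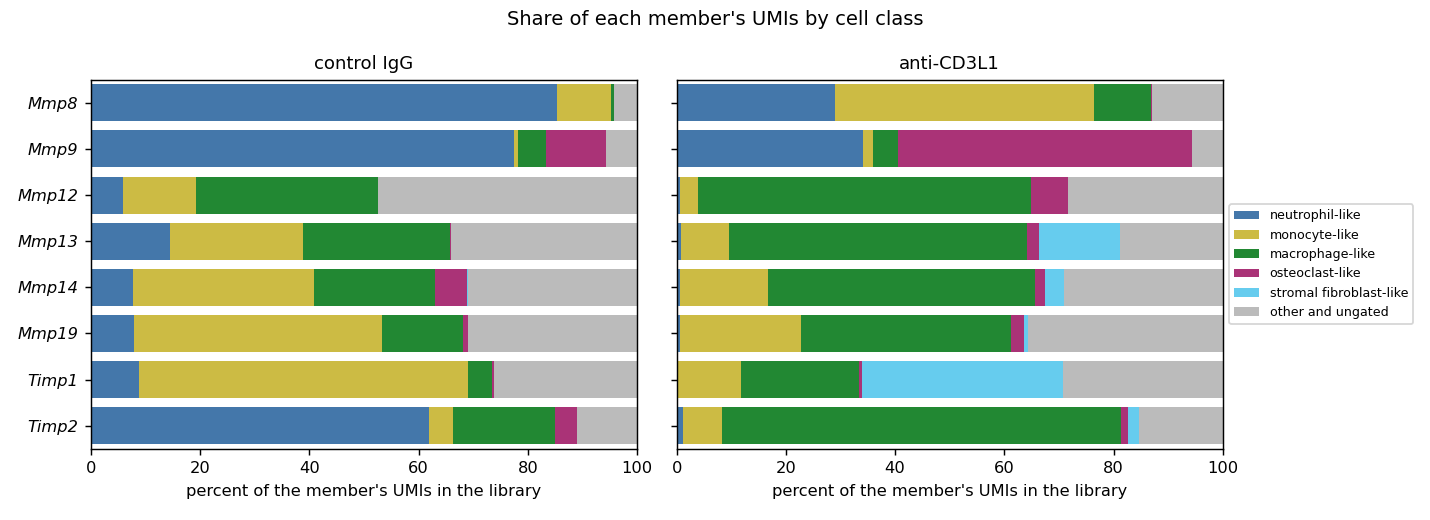
Percent of each gene's UMIs (x axis) held by the cell classes named in the legend, in the control IgG (left) and anti-CD3L1 (right) libraries; grey is all other classes and cells without a class. The neutrophil-like share of Mmp9 was 77.4% in the control and 34.1% in the anti-CD3L1 library, and the macrophage-like share of Timp2 was 18.7% and 73.2%.

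Mmp12, macrophage elastase, was highest among the large classes in macrophage-like cells, with 114 CPM (106 to 122) in the control and 234 CPM (229 to 239) in the anti-CD3L1 library. The anti-CD3L1 level was the higher by 2.05-fold (1.91 to 2.22), a log2 ratio of 1.04. As UMIs per cell the log2 ratio was 0.54, without the 10 cells with the most Mmp12 it was 2.18 and without the highest 2% of cells 1.53. The 10 cells held 441 of 729 control and 840 of 8103 anti-CD3L1 UMIs. After thinning, 4.78% of control macrophage-like cells (2.99 to 7.22%) and 10.7% of anti-CD3L1 ones (9.68 to 11.8%) had Mmp12, against 0.735% and 0.404% of natural killer-like cells, and without thinning the macrophage-like shares were 13.6% and 26.3%. Clustering without the 8 genes gave a macrophage-like cluster led by Fcrls (268 control and 900 anti-CD3L1 cells) and another led by Atp6v0d2 (62 and 1697 cells). Mmp12 was at 108 CPM in control and 105 CPM in anti-CD3L1 cells of the first and at 373 and 410 CPM in the second. In other clusters the libraries lay further apart. An unnamed cluster led by Slc7a2 (140 and 2340 cells) had 12.6 and 165 CPM, and a dendritic cluster led by Cd209a (39 and 666 cells) 56.7 and 132 CPM. The part of cluster makeup in the macrophage-like ratio was not tested.

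Monocyte-like cells had 21.5 and 23.3 CPM of Mmp12, with intervals that overlapped, and the sign of the log2 ratio, 0.11, turned in 5 of 11 alternatives, to -1.59 with clusters as classes. In a monocyte cluster led by Thbs1 the levels were 75.6 CPM in control and 18.2 CPM in anti-CD3L1 cells. Plasmacytoid dendritic-like cells had 165 CPM in 18 control cells and 12.6 CPM in 200 anti-CD3L1 cells, a log2 ratio of -3.71 (-4.53 to -2.93). All 38 control UMIs were in 2 cells, 21 of them in 1, and 17 of 23 anti-CD3L1 UMIs were in 1 cell. The interval does not cover such clumping, so the direction in this class rests on 2 control cells.

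The neutrophil-like class had 3.82 CPM of Mmp12 in control and 43.5 CPM in anti-CD3L1 cells, a log2 ratio of 3.51, but 71 of its 78 anti-CD3L1 UMIs were in 1 cell and 108 of its 128 control UMIs in 10 cells. Only 8 anti-CD3L1 cells of the class had a UMI of it. Mmp13 in the same class had 186 control UMIs, 110 of them in 1 cell, and 23 anti-CD3L1 UMIs, 20 of them in 1 cell.

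The osteoclast-like class, 40 control and 63 anti-CD3L1 cells, held no Mmp12 UMI in the control and 982 CPM in the other library. With the control set at 3 UMIs this is 417-fold higher. The exact interval, taken from the control count of 0, had a lower bound of 338-fold. It does not cover clumping: 10 cells held 695 of the 916 anti-CD3L1 UMIs, and 34 of the 63 cells had any. The size also depends on the gate. An unnamed cluster led by Slc9b2 and Ctsk (109 control and 81 anti-CD3L1 cells) had 2.20 and 49.2 CPM of Mmp12. It held 0.571% of the Mmp12 UMIs of the anti-CD3L1 library, against 6.88% in the gated class. Atp6v0d2, 1 of the gate's osteoclast markers, also led the macrophage-like cluster with 410 CPM of Mmp12 in that library. Of the 63 anti-CD3L1 cells, 19 had at least 5 Mmp9 UMIs, 23 had at least 5 Mmp12 UMIs and none had both. The cells with Mmp9 had 5321 CPM of Ctsk (cathepsin K) and 5683 CPM of Acp5 (tartrate-resistant acid phosphatase), 2 enzymes of bone-resorbing osteoclasts. The cells with Mmp12 had 370 CPM of Ctsk, 382 CPM of Acp5 and 596 CPM of Dcstamp, a fusion gene also made by macrophages that form giant cells. Dcstamp was at 77.2 CPM in the cells with Mmp9. The marker Ocstamp was at 171 CPM in the cells with Mmp9 and 87.2 CPM in those with Mmp12. In the control library, 26 of 40 cells had at least 5 Mmp9 UMIs, with 3853 CPM of Ctsk. The split was made on values of the 2 genes themselves and is a description. The marker Calcr, the calcitonin receptor, was at 0 in both libraries, and 8 control and 25 anti-CD3L1 cells of the class lay near the cut. These limits are of the whole class and were not split by Mmp12. The name holds less firmly for the cells with Mmp12, which had less Ctsk, Acp5 and Ocstamp but more Dcstamp. Mmp19 was at 19.3 CPM in the anti-CD3L1 cells with Mmp9, at 415 CPM in those with Mmp12 and at 340 CPM in the 21 cells with fewer than 5 UMIs of either, which had 124 CPM of Mmp12.

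**Figure D4:**
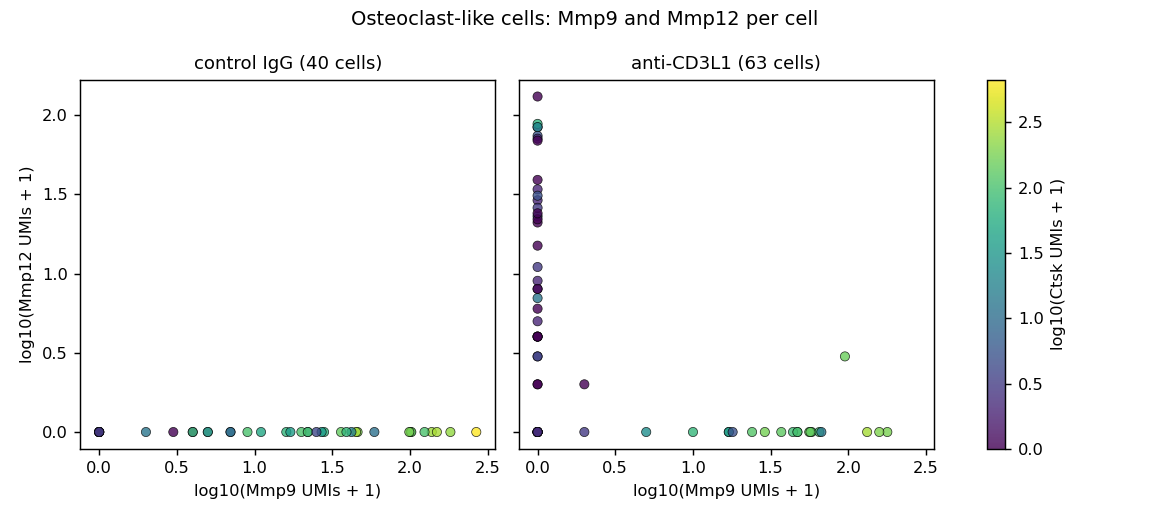
Mmp9 (x axis) and Mmp12 (y axis) in single osteoclast-like cells as log10 of UMIs plus 1, control IgG left and anti-CD3L1 right, coloured by log10 of Ctsk UMIs plus 1. In the anti-CD3L1 library 19 cells with at least 5 Mmp9 UMIs lie along the x axis and 23 cells with at least 5 Mmp12 UMIs along the y axis, and no cell had at least 5 of both.

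Mmp13, collagenase-3, was at 53.9 CPM in control and 46.5 CPM in anti-CD3L1 macrophage-like cells, where the log2 ratio was -0.21 (-0.38 to -0.04). Without the 10 cells with the most Mmp13 the ratio became 1.32 and without the highest 2% of cells 0.49. The 10 cells held 249 of 345 control and 278 of 1611 anti-CD3L1 UMIs. Monocyte-like cells had 22.9 and 13.5 CPM, the control level being the higher (-0.76, -1.01 to -0.52). In the anti-CD3L1 library the highest class was the 37 stromal fibroblast-like cells, with 653 CPM (593 to 718), 14.7% of all Mmp13 UMIs of that library. The 10 highest of those cells held all 435 of these UMIs. In thinned anti-CD3L1 macrophage-like cells, Mmp13 was found in 10.6% of 358 cells with Mmp12 (7.62 to 14.3%) and in 2.78% of 2986 cells without it (2.22 to 3.43%). The control shares were 14.3% of 21 cells and 1.91% of 418 cells, with intervals that overlapped (3.05 to 36.3% and 0.830 to 3.74%).

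Mmp8, Mmp12 and Mmp13 belong to 1 cluster of metalloproteinase genes on mouse chromosome 9, and the promoter stretches of these neighbours are shown because the 3 genes had unlike class patterns. Each line gives the 250 bases before a RefSeq start site of GRCm38.p6, on the + strand, and capitals mark matches on either strand to TGANTCA (the AP-1 motif), GAGGAA (a core of PU.1 and other ETS sites) or TATAAA.
Mmp8, chr9:7558179-7558428: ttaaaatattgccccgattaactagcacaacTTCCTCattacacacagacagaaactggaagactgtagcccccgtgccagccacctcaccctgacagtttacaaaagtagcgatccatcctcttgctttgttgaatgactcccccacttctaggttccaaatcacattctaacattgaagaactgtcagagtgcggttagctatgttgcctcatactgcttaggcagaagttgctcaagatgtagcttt
Mmp12, site 1, chr9:7344147-7344396: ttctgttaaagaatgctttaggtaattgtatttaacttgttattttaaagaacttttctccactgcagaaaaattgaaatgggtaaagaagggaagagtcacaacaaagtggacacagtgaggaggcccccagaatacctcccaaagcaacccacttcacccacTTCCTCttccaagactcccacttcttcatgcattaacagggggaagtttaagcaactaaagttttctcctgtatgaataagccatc
Mmp12, site 2, chr9:7347124-7347373: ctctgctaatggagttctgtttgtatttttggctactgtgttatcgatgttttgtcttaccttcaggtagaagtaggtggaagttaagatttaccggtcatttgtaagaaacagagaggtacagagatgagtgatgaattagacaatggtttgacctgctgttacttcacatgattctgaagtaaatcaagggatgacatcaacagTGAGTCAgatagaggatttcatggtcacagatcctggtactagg
Mmp13, chr9:7272264-7272513: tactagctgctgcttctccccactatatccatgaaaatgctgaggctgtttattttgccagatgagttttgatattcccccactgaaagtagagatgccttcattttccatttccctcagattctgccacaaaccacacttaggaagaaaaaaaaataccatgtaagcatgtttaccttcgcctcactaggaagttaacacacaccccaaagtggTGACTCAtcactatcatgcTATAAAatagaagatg

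Mmp12, at its second start site, and Mmp13 each had an AP-1 match, beginning 44 and 35 bases before the start. The AP-1 motif was found in 6.75% of 32851 promoters of the same length, GAGGAA in 23.3% and TATAAA in 12.4%, so a match to the latter motifs is common. Mmp8 and the first Mmp12 start had a GAGGAA match, 219 and 86 bases before the start, and Mmp13 had TATAAA at 16 bases. The upstream stretches of Mmp14, Timp1 and Timp2 held none of the 3 motifs, Mmp9 and Mmp19 had no entry, and which Mmp12 start was used in these cells was not measured.

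Mmp14, a membrane-anchored metalloproteinase that activates the MMP-2 proenzyme, was found in most macrophage-like cells and was lower in the anti-CD3L1 library in 4 myeloid classes. Macrophage-like cells had 395 CPM (379 to 410) in control and 224 CPM (219 to 229) in anti-CD3L1 cells, monocyte-like cells 275 and 133 CPM, osteoclast-like cells 518 and 314 CPM, and dendritic-like cells 175 and 22.0 CPM. The control level was the higher in each of these and the intervals did not overlap. The osteoclast-like class held unlike cells in the libraries: in its cells with at least 5 Mmp9 UMIs Mmp14 was at 519 and 434 CPM, and the 23 anti-CD3L1 cells with at least 5 Mmp12 UMIs, of which the control had none, had 186 CPM. The log2 ratios were -0.82 (-0.88 to -0.75), -1.05 (-1.12 to -0.97), -0.72 (-0.93 to -0.52) and -2.99 (-3.52 to -2.45), the last from 19 control cells. Only 7 of these 19 cells had a UMI and 22 of the 50 UMIs were in 1 cell, which the interval does not cover. After thinning, 21.1% of control (6.05 to 45.6%) and 2.14% of anti-CD3L1 dendritic-like cells (0.788 to 4.59%) had Mmp14. In monocyte-like cells the ratio was -0.78 when cells were thinned to 1000 UMIs. Over all cells the level was 169 CPM and 162 CPM, a log2 ratio of -0.06, while 68.4% of control cells were in the neutrophil-like class, with 26.4 CPM.

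The share of thinned cells with Mmp14 was 33.7% of control (29.3 to 38.3%) and 19.5% of anti-CD3L1 macrophage-like cells (18.1 to 20.8%), and 25% and 11.7% of monocyte-like cells. Without thinning these were 90.5% and 74.9% of macrophage-like and 75.7% and 45.9% of monocyte-like cells. Thinned natural killer-like cells had it in none of 136 and in 0.808% of 743. Anti-CD3L1 macrophage-like cells with Folr2, a marker of resident-type macrophages, had 174 CPM of Mmp14 and those without Folr2 231 CPM, a log2 ratio of -0.41 (-0.52 to -0.30). Mmp14 was lower in the anti-CD3L1 library both with Folr2, at a log2 ratio of -1.25 (21 control cells), and without it, at -0.77. The 37 fibroblast-like anti-CD3L1 cells had 836 CPM of Mmp14 and 902 CPM of Mmp2, a gelatinase that was at 1.09 and 0.606 CPM in macrophage-like cells.

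Mmp19, a secreted metalloproteinase of the basement membrane, was higher in the anti-CD3L1 library in monocyte-like and macrophage-like cells by less than 2-fold. Monocyte-like cells had 80.0 CPM (75.4 to 84.9) in control and 108 CPM (103 to 112) in anti-CD3L1 cells, and macrophage-like cells 55.3 and 103 CPM. The log2 ratios were 0.43 (0.32 to 0.53) and 0.90 (0.75 to 1.07), and as UMIs per cell the first became -0.21. Natural killer-like cells had 7.33 and 6.35 CPM. In clusters drawn without the 8 genes, 42.4% of the Mmp19 UMIs of the anti-CD3L1 library were in 1 cluster of 2340 cells, 20.8% of its cells, with 184 CPM. That cluster was led by Slc7a2, Areg and Il10, had 1 fixed marker among its leading genes and stayed unnamed, and the control library had 140 cells in it. Neutrophil-like cells had 5.61 and 27.9 CPM, and the ratio of 2.31 became 0.41 without the 10 highest cells of each library.

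Timp1, an inducible inhibitor of most secreted metalloproteinases, had 60.2% of its control UMIs in monocyte-like cells, and in the anti-CD3L1 library 36.7% were in fibroblast-like, 21.7% in macrophage-like and 11.6% in monocyte-like cells. Monocyte-like cells had 127 CPM (121 to 134) in control and 16.6 CPM (14.9 to 18.6) in anti-CD3L1 cells, so the control level was the higher, 7.65-fold (6.79 to 8.65). The alternatives gave log2 ratios from -3.57 to -2.75, including without the 10 cells with the most Timp1, which held 585 of 1744 control UMIs. After thinning, 6.48% of control (5.09 to 8.12%) and 1.28% of anti-CD3L1 monocyte-like cells (0.864 to 1.82%) had Timp1, and none of 136 and 743 natural killer-like cells. At that depth 3 natural killer-like cells set limits of 2.21% and 0.404%, and the exact upper bounds were 2.68% and 0.495%. At full depth the monocyte-like shares were 24.6% and 6.67%, and natural killer-like cells had Timp1 in none of 136 and in 0.538% of 744. Macrophage-like cells had 19.4 and 17.3 CPM, with overlapping intervals. The 37 fibroblast-like cells of the anti-CD3L1 library had 1521 CPM (1429 to 1618). The 3 fibroblast-like control cells are too few for a comparison.

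Timp2, the inhibitor that also takes part in MMP-2 activation, was higher in the anti-CD3L1 library in macrophage-like and monocyte-like cells. Macrophage-like cells had 265 CPM (252 to 277) in control and 438 CPM (431 to 445) in anti-CD3L1 cells, and monocyte-like cells 28.3 and 76.0 CPM. The log2 ratios were 0.73 (0.66 to 0.80) and 1.42 (1.26 to 1.59). As UMIs per cell these were 0.23 and 0.79, and clustering gave 0.52 for monocyte-like cells. Natural killer-like cells had 34.2 and 27.5 CPM, and the control level in monocyte-like cells was no higher than in these. Neutrophil-like cells had 168 and 141 CPM, a log2 ratio of -0.25 (-0.44 to -0.07) that turned in 2 of 11 alternatives, and held 62.0% of all control Timp2 UMIs but 1.22% of those of the anti-CD3L1 library, where macrophage-like cells held 73.2%. Folr2-positive macrophage-like cells had more Timp2 than the others in both libraries, with 360 against 260 CPM and 681 against 404 CPM.

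Whether cells with the enzyme Mmp14 also had its partner Timp2 was read from thinned cells, and no difference beyond counting error was detectable at this depth. In macrophage-like cells Timp2 was present in 18.2% of 148 control cells with Mmp14 (12.4 to 25.4%) and 21.3% of 291 without it (16.7 to 26.5%). The anti-CD3L1 shares were 30.6% of 651 (27.0 to 34.3%) and 29.2% of 2693 cells (27.4 to 30.9%).

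**Figure D5:**
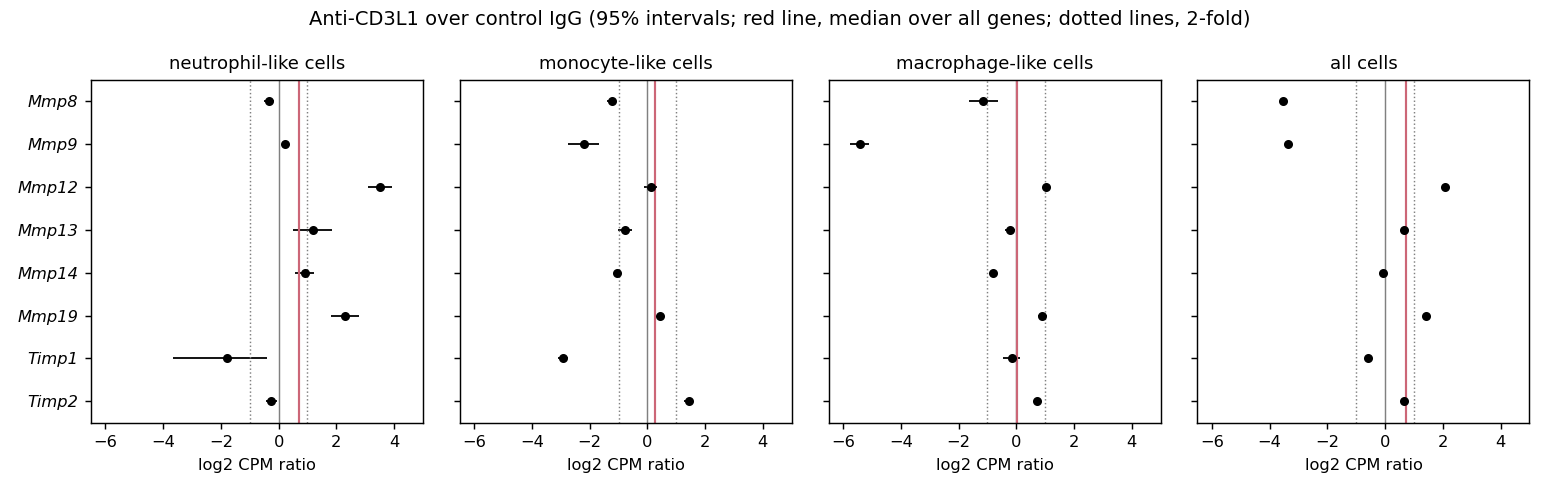
Log2 ratio of CPM, anti-CD3L1 over control IgG, of each gene in neutrophil-like, monocyte-like and macrophage-like cells and in all kept cells; bars are exact 95% intervals, dotted lines mark 2-fold and the red line the median of all genes with at least 20 UMIs. Mmp9 stood at -5.42 in macrophage-like cells and at 0.23 in neutrophil-like cells.

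Counted over the 8 genes, 4 were at least 2-fold lower and 1 at least 2-fold higher in anti-CD3L1 monocyte-like cells, where 2.63% of 12942 genes were that much lower and 11% that much higher. The lower ones were Mmp8, Mmp9, Mmp14 and Timp1 and the higher one Timp2, and the median log2 ratio of the 8 was -0.90 against 0.25 over all genes. Mmp9 was near its natural killer-like level in both libraries (9.49 and 2.08 against 6.11 and 1.55 CPM), and its natural killer-like log2 ratio was -1.98 (-3.35 to -0.58). Timp2 in control monocyte-like cells was no higher than in natural killer-like cells (28.3 against 34.2 CPM). In macrophage-like cells 2 were lower, Mmp8 and Mmp9, and 1 higher, Mmp12, where 4.77% of 13975 genes were lower and 6.94% higher, with medians of -0.19 and 0.02. In neutrophil-like cells 1 was lower, Timp1, with 256 control and 4 anti-CD3L1 UMIs, and 3 were higher, Mmp12, Mmp13 and Mmp19, where 3.34% of 11547 genes were lower and 37% higher. The median over all genes in that class was a log2 ratio of 0.71, and the 9 neutrophil markers, S100a8 and S100a9 among them, summed to 178126 CPM in control and 84367 CPM in anti-CD3L1 cells. In that class Mmp8, Mmp9, Timp1 and Timp2 stood below the median of all genes.

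Genes that act with these enzymes were read from lists. Of 18 genes for activators and partners, 15 had at least 20 UMIs in each of the 3 large classes. In monocyte-like cells 1 of the 15 was at least 2-fold higher and 1 lower in the anti-CD3L1 library: Plau, the urokinase that starts the plasmin cascade, was at 33.0 and 93.2 CPM, and Adam8, a membrane protease of myeloid cells, at 130 and 33.1 CPM. In macrophage-like cells the counts were also 1 and 1, Ctsk being the higher with 7.34 and 39.0 CPM and Serpinb2, a urokinase inhibitor, the lower with 7.03 and 2.22 CPM. In neutrophil-like cells 4 were higher and 1 lower, among them Ctss (cathepsin S), at 115 and 436 CPM, and Lrp1, a receptor that clears protease and inhibitor complexes, at 12.4 and 51.8 CPM. The median log2 ratios of the list were 0.57, 0.01 and 0.12 in the neutrophil-like, monocyte-like and macrophage-like classes, against 0.71, 0.25 and 0.02 over all genes. In the same order of classes, 37%, 11% and 6.94% of all genes were at least 2-fold higher and 3.34%, 2.63% and 4.77% at least 2-fold lower.

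Of 20 further genes of the family, 19 were in the tables and 3, 4 and 7 reached 20 UMIs in the neutrophil-like, monocyte-like and macrophage-like classes. Of these, Mmp3 in macrophage-like cells, with 10 control and 14 anti-CD3L1 UMIs, was at least 2-fold lower and the rest were within 2-fold. Mmp25, a membrane-anchored enzyme of neutrophils, was at 43.5 and 45.2 CPM in neutrophil-like cells, a log2 ratio of 0.06. Of 12 neutrophil granule genes, 9 had at least 20 UMIs in neutrophil-like cells. Among these, Ltf, Camp and Ngp were at least 2-fold higher and Lcn2 lower in anti-CD3L1 cells, where 37% of all genes were higher and 3.34% lower. The first 3 had log2 ratios of 3.30, 2.98 and 1.94 and came from the same few cells as Mmp8. Lcn2, lipocalin-2, which forms a complex with MMP-9 protein, was lower in all 3 classes, at -2.60, -4.86 and -4.83 in neutrophil-like, monocyte-like and macrophage-like cells. It is abundant in neutrophils, with 306181 UMIs in control and 2713 in anti-CD3L1 neutrophil-like cells. Free RNA of S100a9 was at 39046 CPM in control and 867 CPM in anti-CD3L1 empty droplets. The part of free neutrophil RNA in the monocyte-like and macrophage-like ratios of Lcn2 was not tested. Itgam, the alpha chain of the integrin Mac-1, was lower in monocyte-like (-1.17) and macrophage-like cells (-1.23).

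Likeness was measured as Pearson's r of log2(CPM + 1) over 18 profiles, each 1 class in 1 library, among 6716 other genes that reached 50 CPM in a profile. The profiles of 1 library share their depth and free RNA, so these are descriptions. The 3 genes most like Mmp8 were Trem3, Adgrv1 and Lrg1, with r from 0.94 to 0.95, and those most like Mmp9 were Rufy4 (0.92), Dock5 (0.83) and Aldoa (0.82). Mmp12 was most like Cd36 (0.84), Psap and Itgax (both 0.78), Mmp13 most like Pdpn (0.89), Igf1 (0.88) and Steap3 (0.86), and Mmp14 most like Mt1 (0.93), Dynlrb1 (0.92) and Cmtm3 (0.89). For Mmp19 these were AI413582 (0.89), Lrp1 (0.86) and Ndrg1 (0.85). For the inhibitors they were Csrp2, Nrg1 (both 0.84) and Mt2 (0.83) for Timp1, and Olfml3 (0.80), Slc6a8 (0.79) and Akr1b8 (0.78) for Timp2.

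In the RefSeq annotation of GRCm38.p6, Timp1 overlaps Syn1, Mmp19 overlaps Tmem198b and Timp2 overlaps Cep295nl. Over both libraries Syn1 had 542 UMIs, Tmem198b 582 and Cep295nl 70, against 5657 for Timp1, 11705 for Mmp19 and 29811 for Timp2. The sources used here do not say how strand was used in counting.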

How the data were processed

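RNA of CD45 bead-sorted cells was counted in 2 single-cell libraries, 1 per treatment, each of 3 pooled tumors. The authors deposited raw UMI counts per gene and barcode for all barcodes. The submitters' processing notes name Cell Ranger 7.1.0, Seurat 5.1.0 and GRCm39. A deposited table of the authors' own macrophage comparison (log2 fold changes, shares of cells and Wilcoxon p-values over cells) was not used.

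From the counts, cells were filtered as stated above, and scored as the mean over a type's markers of log(1 + UMIs per 10000), each scaled to its 99th percentile and capped at 1, with at least 3 markers detected. The 13 marker lists, the 8 members and the gene lists were chosen with earlier results of these data known. Named list genes are those at least 2-fold apart with at least 50 CPM in 1 library, at most 4 per list and class, and Ctsk, Serpinb2, Mmp2, Mmp3 and Mmp25 were added after their values were seen, and the divisions by Retnlg, Folr2, S100a9, Ctsk and 5 UMIs in osteoclast-like cells were not planned either.

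UMIs were summed by class and library, with Poisson intervals for CPM and Clopper-Pearson binomial intervals for shares and, given the summed UMIs, for ratios (Python 3.11.15, scipy 1.17.1, scanpy 1.11.5 for clustering). A count of 0 was set to 3 UMIs in ratios. No doublet caller was run. An alternative left out the top 5% of UMIs. Functions were tested on simulated counts. Libraries held 74850604 (control) and 108246719 UMIs in all, 67296569 and 97909163 of them in kept cells. Deposited counts cannot tell fewer captured molecules from less RNA per cell. Alternatives were other cell filters, a stricter gate, clusters as classes, subtraction of the natural killer-like mean, UMIs per cell, totals without S100a8 and S100a9, thinning, 1.5-fold and, added later, the 10 highest cells or the highest 2% of cells left out.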

Additional observations from a re-analysis of the deposited data

Results flagged for a closer look

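For 4 of the 8 genes the ratio between the libraries ran in opposite directions in different classes, with intervals on either side of no change and at least 1 of the ratios past 2-fold. These differences between classes were not tested, since each class is from the same pair of libraries. In each of the 4 genes the neutrophil-like class stood on 1 side. The median log2 ratio over all genes was 0.71 in that class, 0.25 in monocyte-like and 0.02 in macrophage-like cells. The share of all genes that ran in opposite directions was not computed. Mmp9 had a log2 ratio of -5.42 in macrophage-like cells and -2.19 in monocyte-like cells, where it was near its natural killer-like level. In neutrophil-like cells the ratio was 0.23, which turned to -0.69 when UMIs per cell were used. Mmp13 stood at -0.76 in monocyte-like and -0.21 in macrophage-like cells and at 1.21 in neutrophil-like cells, the last from 23 anti-CD3L1 UMIs, 20 of them in 1 cell. Mmp14 had -1.05 in monocyte-like cells and 0.91 in neutrophil-like cells, which became -0.01 with UMIs per cell. Timp2 had 1.42 in monocyte-like cells and -0.25 in neutrophil-like cells, and the latter changed sign in 2 of 11 alternatives, to 0.07 with thinned cells.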

How the results depend on the processing

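Over 11 alternatives, 188 of 340 log2 ratios of the 8 genes (3 classes and all cells) stayed within the 95% interval of the reported ratio, and 146 of 164 ratios past 2-fold stayed past it in the same direction. The sign changed in 23 of the 340. In 2 of these the reported ratio was past 2-fold, both for Mmp8 in macrophage-like cells, 0.19 with the stricter gate and 0.51 without the 10 cells with the most Mmp8. The others were of ratios within 2-fold, among them Mmp12 in monocyte-like cells (5 of 11 alternatives, to -1.59 with clusters), Mmp13 in macrophage-like cells (5 of 11, to 1.32 without the 10 highest cells) and Mmp8 in neutrophil-like cells (1.40 with clusters). Counts of genes at least 2-fold higher in macrophage-like cells, 1 as reported, became 3 at 1.5-fold, 2 with clusters as classes, 0 with the stricter gate, 0 without the top 5% of cells by UMIs, 0 with UMIs per cell and 3 without the 10 highest cells. Those lower there, 2 as reported, became 1 with clusters, the stricter gate, without the top 5% and without the 10 highest cells. In monocyte-like cells the 1 higher became 0 with clusters, with UMIs per cell and with thinning, and the 4 lower became 2 with thinning. In neutrophil-like cells the 1 lower became 0 with clusters and without the top 5%, and 3 with UMIs per cell. Over all cells the 2 higher became 4 at 1.5-fold and 4 after subtraction of the natural killer-like mean. The shares over all genes were computed for the reported setting only, so the counts under the alternatives have no background beside them. With clusters as classes, which named no osteoclast-like cells, 5 of 8 genes kept the class of highest CPM in each library. The causes were not tested. Leaving out the 10 highest cells, an unequal share of classes of unequal size, and leaving out the highest 2% of cells were chosen after seeing the data. Where these took every UMI of a gene in a library no value is given: 3 and 4 of 8 genes in neutrophil-like cells and, for the 2%, Mmp9 in monocyte-like and macrophage-like cells, so no count of genes could be had there. Of 48 shares of cells, 46 moved unthinned and 38 with thinning to 500 UMIs. No paired analysis was possible because each group has 1 library.

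The limits are those of 1 library per group: treatment, mouse, tumor pool and library cannot be told apart. The anti-CD3L1 library has 595 neutrophil-like cells with a median of 2182 UMIs, so ratios in that class rest on few UMIs, 4 for Timp1 and 23 for Mmp13. Free RNA was at 8.39 to 201 CPM over the 8 genes in empty droplets, and its part in the low levels of other classes was not tested.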
